A study of Mus musculus with 4 samples.

Results

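The genes described here are those of the mature red blood cell: the adult globins Hba-a1, Hba-a2, Hbb-bs and Hbb-bt, the embryonic globins Hbb-y and Hbb-bh1, the heme synthesis gene Alas2, the red cell membrane gene Slc4a1 and the globin chaperone gene Ahsp. They were chosen by name, as 9 genes of a table of 55228, and 8 of the 9 had a row. Ahsp was not analysed here. Of the 8 genes, 6 had enough reads to be tested, and Hbb-y and Hbb-bh1 did not.

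The tissue was rib cartilage, taken at stage E17.5 from embryos of the C57BL/6 mouse strain, and total RNA was sequenced. 2 libraries were made from Trim28 knockout (Trim28 KO) embryos and 2 from wild-type (WT) embryos of the same strain and stage. The labels give neither the allele or the cells in which Trim28 was deleted, nor whether both libraries of a genotype are from different embryos. The p-values hence reflect library-to-library spread alone, which may be technical. TRIM28 is a corepressor that KRAB zinc finger proteins bring to DNA. Library totals ran from 18616896 to 20082123 counts, so that a count of 3, used as the floor, stood for 0.151 to 0.159 CPM (reads of a gene relative to the size of its library, here with factors from the TMM method of edgeR). Intervals and floors cover counting error only. Trim28 itself had 51.1 and 54.5 CPM in Trim28 KO and 225 and 186 CPM in WT, a fall that matched the labels (log2 fold change of -1.96 with a standard error of 0.20, given as ± from here on; 2 libraries per genotype; adjusted p = 2.28e-07 in the edgeR quasi-likelihood test). Both genotypes carried the transcripts of cartilage: Col2a1, the main cartilage collagen, took 6.12% and 7.45% of the counts in Trim28 KO and 7.47% and 5.64% in WT, and 0 of 12 tested chondrocyte genes were called by edgeR (1 at an unadjusted p under 0.05, and 1 by DESeq2, both higher).

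Hemoglobin is built from alpha-like and beta-like globin chains, each holding a heme group. Mouse embryos first make primitive red cells in the yolk sac with embryonic chains such as those of Hbb-y and Hbb-bh1, and later make definitive red cells, at this stage mainly in the fetal liver, with the adult chains. Red cells that have expelled their nucleus keep globin mRNA for a time, so blood left in a tissue brings globin reads into its RNA.

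The adult globins stand in the genome as pairs of near-identical copies, which limits what a count can say about a single copy. On GRCm38, the assembly that mm10 names, Hba-a1 lies on the plus strand of chromosome 11 from 32283511 to 32284465 and Hba-a2 from 32296489 to 32297298. Hbb-bt (103812524 to 103813996), Hbb-bs (103826534 to 103828096), Hbb-bh1 (103841637 to 103843164) and Hbb-y (103851749 to 103853216) lie on the minus strand of chromosome 7. In the GENCODE transcripts, the 426 coding bases of Hba-a1 and Hba-a2 differed at 1 base, in exon 3, and the 441 coding bases of Hbb-bs and Hbb-bt also differed at 1 base of exon 3. These bases are shown because they are the only coding bases that can assign a read to a copy. They are in capitals below, within 29 bases on the coding strand, at chr11:32284329-32284357 and chr11:32297146-32297174 for the alpha pair and at chr7:103826678-103826706 and chr7:103812669-103812697 for the beta pair.
Hba-a1: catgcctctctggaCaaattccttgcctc
Hba-a2: catgcctctctggaTaaattccttgcctc
Hbb-bs: gtggctggagtggcCgctgccctggctca
Hbb-bt: gtggctggagtggcTgctgccctggctca
Counted from the first base of the start codon, the changes are C381T from Hba-a1 to Hba-a2 and C417T from Hbb-bs to Hbb-bt. Of all 50-base stretches of the Hba-a1 transcript, 67.5% also occurred in Hba-a2, and 86.9% of those of Hba-a2 occurred in Hba-a1. For the beta pair the shares were 65.8% of Hbb-bs and 58.3% of Hbb-bt. Reads that the aligner marked as mapping to several places were not counted, but the aligner is not given. The levels of these 4 genes may therefore be too low by an unknown amount, and the split within a pair is uncertain.

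The embryonic chains have no such problem. The first 60 coding bases of Hbb-bs, Hbb-y and Hbb-bh1 are shown for their contrast with the pairs above, with bases that differ from Hbb-bs in capitals (chr7:103827816-103827875, chr7:103853093-103853152 and chr7:103843051-103843110, minus strand).
Hbb-bs: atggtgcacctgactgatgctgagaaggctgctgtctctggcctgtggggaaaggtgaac
Hbb-y: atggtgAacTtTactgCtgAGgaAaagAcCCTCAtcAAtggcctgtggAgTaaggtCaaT
Hbb-bh1: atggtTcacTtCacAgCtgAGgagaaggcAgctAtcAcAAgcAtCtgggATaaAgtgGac
Over the 441 coding bases Hbb-y differed from Hbb-bs at 113 and Hbb-bh1 at 115, and no 50-base stretch was shared, so reads of the embryonic genes could be told from those of the adult genes.

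The 4 adult globin transcripts were all lower in Trim28 KO, by 3.52-fold to 4.34-fold. Hba-a1, which encodes an alpha chain, had 20.7 and 21.9 CPM in Trim28 KO and 79.4 and 106 CPM in WT. The Trim28 KO libraries lay close together and below both WT libraries, and the same order held for each of the other adult globins. Hba-a1 fell 4.34-fold (log2 fold change of -2.12 ± 0.20, adjusted p = 5.14e-08; this and the adjusted p-values below are from the edgeR fit over all genes). Its near copy Hba-a2 had 15.2 and 15.5 CPM in Trim28 KO and 47.3 and 70.3 CPM in WT, and fell 3.83-fold (-1.94 ± 0.21, adjusted p = 4.58e-07). Of the beta chain genes, Hbb-bs had 31.6 and 34.9 CPM in Trim28 KO and 97.9 and 136 CPM in WT, and fell 3.52-fold (-1.82 ± 0.21, adjusted p = 9.66e-07). Hbb-bt had 7.11 and 7.88 CPM in Trim28 KO and 24.9 and 29.3 CPM in WT, and fell 3.62-fold (-1.86 ± 0.21, adjusted p = 6.57e-07). These log2 fold changes differ from each other by less than 2 of their standard errors.

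Summed, the adult globins took 0.00779% and 0.00802% of all counts in the Trim28 KO libraries (1450 and 1597 reads), against 0.0234% and 0.0347% in the WT libraries (4697 and 6764 reads). The sum averaged 77.4 ± 3.9 CPM in Trim28 KO and 296 ± 65 CPM in WT (SD, n = 2), a ratio of group means of 3.82. The globin reads were thus few in every library beside the reads of Col2a1. For the adult globins, Trim28 KO 2 exceeded Trim28 KO 1 by 1.01-fold (Hba-a2) to 1.11-fold (Hbb-bt), and WT 2 exceeded WT 1 by 1.18-fold (Hbb-bt) to 1.49-fold (Hba-a2), a wider gap. In bulk RNA, fewer red cells and less globin RNA per red cell cannot be told apart.

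**Figure D1:**
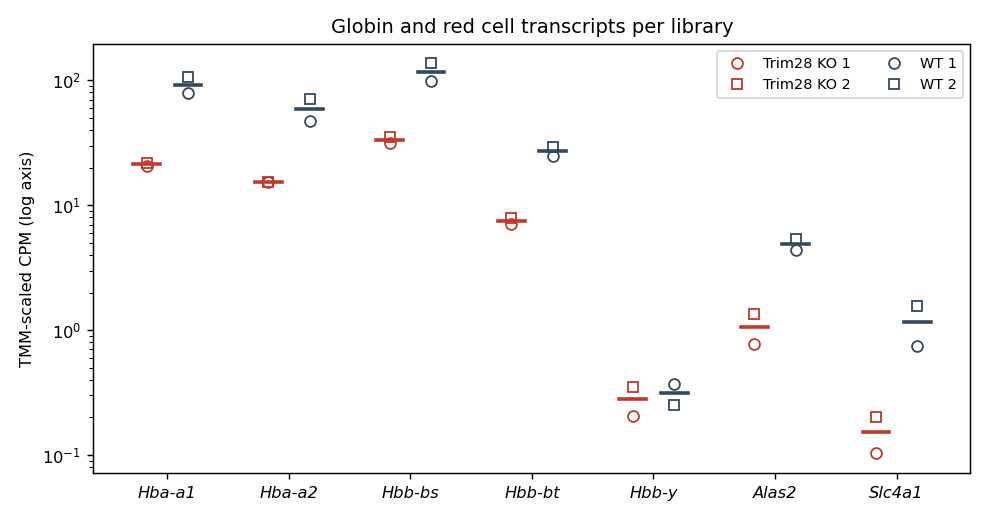
TMM-scaled CPM (log axis) of 7 red cell genes in each library, with Trim28 KO in red left of WT in dark blue and a bar at the mean of each genotype; circles are replicate 1 and squares replicate 2. The genotypes are apart for the 4 adult globins, Alas2 and Slc4a1 and overlap for Hbb-y; Hbb-bh1, at 0 reads in 3 libraries, is not drawn.

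The other tested members were also lower. Alas2 encodes the red cell form of 5-aminolevulinate synthase, the first enzyme of heme synthesis, and lies on the plus strand of chromosome X from 150547375 to 150570638. It had 0.772 and 1.35 CPM (15 and 27 reads) in Trim28 KO and 4.35 and 5.35 CPM (82 and 106 reads) in WT, with no overlap. It fell 4.54-fold (log2 fold change of -2.18 ± 0.36, adjusted p = 1.41e-04). Slc4a1, on the minus strand of chromosome 11 from 102348824 to 102366203, encodes band 3, the anion exchanger of the red cell membrane. It had 0.103 and 0.201 CPM (2 and 4 reads) in Trim28 KO, at or near the floor, and 0.743 and 1.57 CPM (14 and 31 reads) in WT. Its log2 fold change was -2.88 ± 0.65 (adjusted p = 0.00294), and the ratio of the summed reads was 0.131 with exact 95% bounds of 0.0456 and 0.308 given the total. Slc4a1 met the filter on low counts only through the WT libraries, so it could only have been tested if it was high there. Its call was lost without Trim28 KO 1 (adjusted p = 0.102) and without WT 2 (adjusted p = 0.108).

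Leaving Slc4a1 aside for that reason, 5 members met the filter in both genotypes, and all 5 fell, while 8.77% of the 16639 genes tested were called lower and 8.64% were called higher. The median log2 fold change of the 5 was -1.94, beside -0.02 over all tested genes. Genotypes that did not overlap, with Trim28 KO lower, were found for the same 5 members, and for 29.7% of all tested genes. Without WT 2, the library richest in globin reads, the adult globins had log2 fold changes of -1.87 (Hba-a1), -1.60 (Hba-a2), -1.53 (Hbb-bs) and -1.71 (Hbb-bt), and all 4 were still called.

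The embryonic globins were near the limit of detection in all libraries. Hbb-y, the epsilon-like chain of primitive red cells, had 4 and 7 reads in Trim28 KO and 7 and 5 reads in WT (0.206 and 0.351 CPM against 0.372 and 0.253 CPM), and the genotypes overlapped. The ratio of the summed reads was 0.900 with a 95% counting interval of 0.360 to 2.23, whereas that of the adult globins was 0.261 with an interval of 0.251 to 0.272. These intervals do not overlap, but they hold counting error only, and a test over 2 libraries against 2 cannot give a two-sided exact p under 0.333. Hbb-bh1 had 0 and 1 reads in Trim28 KO and 0 and 0 in WT, and a count of 0 allows up to 3 reads in its library. With no filter on low counts neither gene was called (adjusted p = 0.952 and 0.697 by edgeR). Hba-x, the embryonic alpha-like chain, had 5 and 1 reads in Trim28 KO and 2 and 1 in WT. Bcl11a encodes a repressor that silences embryonic beta-like globin genes in adult-type red cells and is also used in B cells and neurons. It had 24 and 28 reads in Trim28 KO and 61 and 60 in WT (log2 fold change of -1.24 ± 0.37, adjusted p = 0.0198), a call lost without either Trim28 KO library, without WT 1 and by DESeq2 (highest adjusted p of 0.144).

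Shares within the globin reads set the globins against each other whatever their total in a library. Hba-a1 made up 57.6% and 58.6% of the alpha globin reads in Trim28 KO and 62.7% and 60.02% in WT. The 95% Wilson intervals of these shares spanned 53.9% to 62.1% over the Trim28 KO libraries and 58.4% to 64.6% over the WT libraries, so they overlapped. Hbb-bt made up 18.4% and 18.4% of the adult beta globin reads in Trim28 KO and 20.3% and 17.7% in WT, and here the WT libraries enclosed the Trim28 KO values. Alpha reads were 48.1% and 46.6% of all adult globin reads in Trim28 KO and 50.8% and 51.5% in WT. The values of the genotypes did not overlap, and the interval of Trim28 KO 1 (45.6% to 50.7%) overlapped those of WT 1 (49.4% to 52.2%) and WT 2 (50.3% to 52.7%). The interval of Trim28 KO 2 (44.2% to 49.0%) overlapped neither. Embryonic reads made up 0.529% and 0.929% of the beta-like reads in Trim28 KO (4 of 756 and 8 of 861) and 0.302% and 0.152% in WT (7 of 2319 and 5 of 3287), with intervals from 0.206% to 1.82% in Trim28 KO and from 0.0650% to 0.622% in WT. An exact permutation test of 2 libraries against 2 cannot go below the p of 0.333 given above, and no other test was made of these shares.

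**Figure D2:**
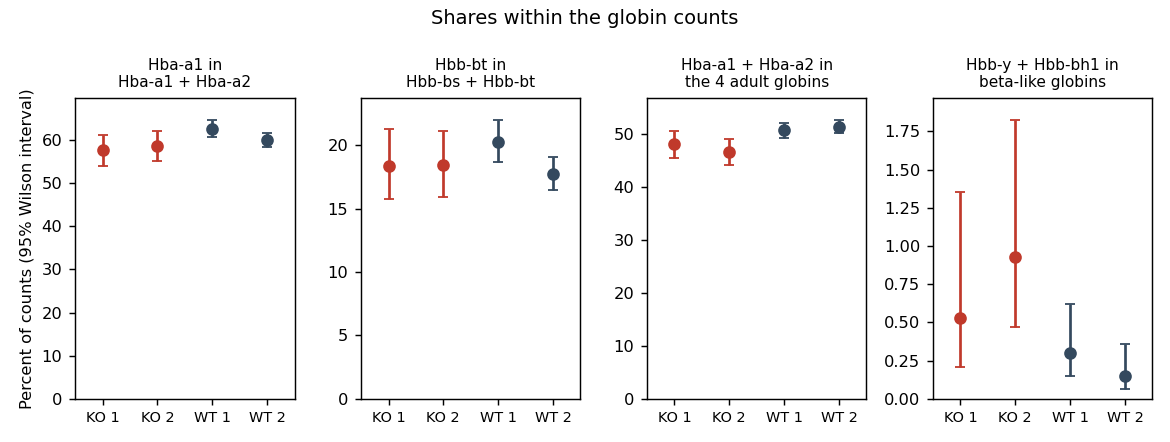
Shares of globin counts per library in percent (points, with 95% Wilson intervals that cover counting error only), Trim28 KO in red and WT in dark blue, each axis starting at 0. Within each of the first 3 shares the libraries lie within a few percentage points of each other, from 46.6% to 51.5% for the alpha share. The embryonic share rests on 4 to 8 reads per library.

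The other members were also set against the adult globin reads of their library. Alas2 had 10.3 and 16.9 reads per 1000 adult globin reads in Trim28 KO and 17.46 and 15.7 in WT, so that both WT values lay above Trim28 KO 1 and on either side of Trim28 KO 2. The exact Poisson 95% intervals were 5.79 to 17.1 for Trim28 KO 1 and 12.8 to 18.95 for WT 2. Slc4a1 had 1.38 and 2.50 reads per 1000 adult globin reads in Trim28 KO and 2.98 and 4.58 in WT. The interval of Trim28 KO 1 (0.167 to 4.98) overlapped that of WT 2 (3.11 to 6.51). A fall of Alas2 or Slc4a1 beyond that of the globins was therefore not detectable at this depth. Hbb-y had 2.76 and 4.38 reads per 1000 adult globin reads in Trim28 KO and 1.49 and 0.739 in WT, so that both Trim28 KO values were above both WT values. The interval of Trim28 KO 2 (1.76 to 9.03) lay above that of WT 2 (0.24 to 1.73), while that of Trim28 KO 1 (0.752 to 7.06) overlapped both WT intervals.

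Levels of different genes were compared per kilobase of the exons that the deposited table gives. In Trim28 KO, CPM per kilobase was 41.2 and 45.5 for Hbb-bs, 25.5 and 26.9 for Hba-a1, 22.9 and 23.2 for Hba-a2 and 10.1 and 11.2 for Hbb-bt, and in this order no neighbours overlapped. In WT it was 127 and 178 for Hbb-bs, 97.8 and 130.001 for Hba-a1, 70.9 and 105 for Hba-a2 and 35.4 and 41.7 for Hbb-bt, and only Hbb-bt stood apart from its neighbour. Alas2 followed at 0.321 and 0.564 in Trim28 KO and 1.81 and 2.23 in WT. Hbb-y overlapped Alas2 in Trim28 KO (0.325 and 0.555) and was below it in WT (0.587 and 0.399), and Slc4a1 was lower still. The globin values may omit reads shared by the copies, so the distance between globins and the other genes may be underestimated.

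The promoters available for members are given for the motifs they hold. They include that of Hbb-y, which was not tested, and lack that of Slc4a1. Of the 9 members, 6 matched a RefSeq promoter of GRCm38.p6, and 5 of these, each of the 250 bases before RefSeq's start of transcription, follow on the strand of the gene, in the order chrX:150547167-150547416, chr11:32283422-32283671, chr7:103827929-103828178, chr7:103813924-103814173 and chr7:103853208-103853457. Capitals mark 4 motifs on either strand. These are GATAA (the core bound by GATA factors such as GATA1), CACCC (the core bound by KLF1), CCAAT (bound by NF-Y) and TATAA (of the TATA box).
Alas2: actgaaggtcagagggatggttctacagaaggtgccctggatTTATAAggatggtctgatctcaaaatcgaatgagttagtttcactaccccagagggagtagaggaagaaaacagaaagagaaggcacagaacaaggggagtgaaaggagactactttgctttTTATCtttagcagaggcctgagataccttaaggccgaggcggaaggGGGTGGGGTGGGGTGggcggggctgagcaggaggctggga
Hba-a1: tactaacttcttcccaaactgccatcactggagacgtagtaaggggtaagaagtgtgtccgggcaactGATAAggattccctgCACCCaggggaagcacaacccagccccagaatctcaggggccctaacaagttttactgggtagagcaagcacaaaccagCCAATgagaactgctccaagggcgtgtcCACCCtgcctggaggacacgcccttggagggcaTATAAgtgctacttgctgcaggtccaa
Hbb-bs: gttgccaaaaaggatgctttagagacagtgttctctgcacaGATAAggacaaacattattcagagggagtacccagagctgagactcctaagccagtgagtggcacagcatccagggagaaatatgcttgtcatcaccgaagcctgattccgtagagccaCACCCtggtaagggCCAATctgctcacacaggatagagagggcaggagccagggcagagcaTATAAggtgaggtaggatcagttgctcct
Hbb-bt: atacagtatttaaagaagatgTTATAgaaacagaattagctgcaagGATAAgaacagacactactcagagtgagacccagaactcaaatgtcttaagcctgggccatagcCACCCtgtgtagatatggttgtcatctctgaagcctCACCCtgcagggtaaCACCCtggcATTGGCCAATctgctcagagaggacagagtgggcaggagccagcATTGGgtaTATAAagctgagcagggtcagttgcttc
Hbb-y: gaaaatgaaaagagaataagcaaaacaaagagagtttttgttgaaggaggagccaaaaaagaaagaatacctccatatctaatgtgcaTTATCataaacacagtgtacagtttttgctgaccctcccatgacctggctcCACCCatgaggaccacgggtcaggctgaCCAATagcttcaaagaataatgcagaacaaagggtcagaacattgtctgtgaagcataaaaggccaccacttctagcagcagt
The Hba-a2 promoter shared an unbroken run of 247 bases with that of Hba-a1 and is not repeated. All 4 adult globin promoters held each of the 4 motifs, with TATAA starting 27 to 30 bases and CCAAT 75 to 91 bases upstream of the start on the same strand (Hbb-bt also held CCAAT at 80 and 36 bases on the opposite strand). Hbb-y, which could not be tested, lacked only TATAA of the 4 motifs in this window. Alas2 lacked only CCAAT. In Alas2, TATAA matched on both strands at 208 and 207 bases upstream, and these matches overlap by 4 bases; no other matches overlapped. Of 32851 RefSeq promoter windows of this length, 22.6% held GATAA, while 52.0% held CACCC, 33.8% held CCAAT, 22.8% held TATAA and 0.968% held all 4. These matches describe letters and are no evidence of binding.

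Other genes of the red cell programme that could be tested did not follow the members as a group. Of 104 further gene names in 7 lists, which may hold older names of the same gene, 99 had a row and 77 could be tested. Of these, 7 fell, 11 rose and 59 were not called, with a median log2 fold change of 0.07. The share called lower, 9.09%, was near that of all tested genes (8.77%). Many of the tested genes are also used by other cells, and the 22 listed genes under the filter, which include many of the most red cell specific ones, had few reads: 22 and 26 in all in Trim28 KO and 28 and 86 in WT.

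None of the 12 tested heme synthesis genes fell and 1 rose, with a median log2 fold change of 0.29 (by edgeR; at an unadjusted p under 0.05, 1 was lower and 4 were higher, and DESeq2 called 0 lower and 2 higher). The gene that rose was Alad, the second enzyme of the pathway, with 31.3 and 30.8 CPM in Trim28 KO and 21.9 and 16.7 CPM in WT (log2 fold change of 0.68 ± 0.20, adjusted p = 0.0176), a call lost without either Trim28 KO library and without WT 2. Alas1, the form of the first enzyme that most tissues use, had 26.7 and 28.0 CPM in Trim28 KO and 17.52 and 23.03 CPM in WT and was not called (adjusted p = 0.142). Fech, the ferrochelatase that puts iron into heme, was not called either (-0.49 ± 0.19, adjusted p = 0.0767).

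Of 13 tested red cell membrane and skeleton genes, none fell by edgeR (0 at an unadjusted p under 0.05 and 0 by DESeq2). Dmtn, an actin-binding protein of the membrane skeleton, rose (0.79 ± 0.22, adjusted p = 0.0144; 0.144 without Trim28 KO 1). Aqp1, a water channel that is also made by vessels, had a log2 fold change of -0.27 (adjusted p = 0.394), and Epb41, Gypc and Ank1 were not called. Epb42 had 1 and 1 reads in Trim28 KO and 2 and 5 in WT. Rhag had 0 and 0 reads in Trim28 KO and 0 and 4 in WT. Icam4 was at 0 in all libraries.

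Of 13 tested erythroid transcription factors, Bcl11a fell and none rose by edgeR (0 at an unadjusted p under 0.05 and 0 by DESeq2). Klf1, the activator of the adult beta globin genes, had 10 and 17 reads in Trim28 KO and 13 and 21 in WT (log2 fold change of -0.35 ± 0.51, adjusted p = 0.694). Tal1, which vessels also use, was not called (0.05 ± 0.32). Gata1, the master regulator of red cell genes, had 1 and 2 reads in Trim28 KO and 1 and 9 in WT, and Gfi1b had none in any library. The reads of Gata1 and Gfi1b were too few to be tested.

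Of 14 tested genes of erythropoietin signalling and iron uptake, 4 rose and 2 fell. Steap3, a ferrireductase of the endosome, had 43.4 and 44.0 CPM in Trim28 KO and 16.4 and 10.7 CPM in WT (log2 fold change of 1.69 ± 0.21, adjusted p = 3.81e-06). Slc11a2, an iron importer (0.77 ± 0.19), Hfe (0.95 ± 0.24) and Erfe, the erythroid hormone erythroferrone (1.35 ± 0.40), also rose. Trf, which encodes transferrin (-0.71 ± 0.19), and Jak2 (-0.55 ± 0.19) fell. Of these calls, that of Steap3 was kept under every alternative, and each of the others was lost without at least 1 library. Tfrc, the transferrin receptor, had 62.8 and 115 CPM in Trim28 KO and 143 and 130.006 CPM in WT and was not called (adjusted p = 0.103). Epor, the erythropoietin receptor, had a log2 fold change of -0.13 ± 0.47.

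Of 9 tested red cell enzyme genes, Car2 fell and Cyb5r3 and Hk1 rose. Car2, a carbonic anhydrase of red cells that osteoclasts also make in large amounts, had 1.18 and 0.803 CPM in Trim28 KO and 7.54 and 8.89 CPM in WT (log2 fold change of -3.04 ± 0.33, adjusted p = 3.22e-07). Hk1 (1.10 ± 0.20) and Cyb5r3 (0.88 ± 0.20) are used in most tissues. Of 16 tested genes of late erythroblasts and reticulocytes, 3 fell, among them Tent5c (-1.78 ± 0.26) and Kcnn4 (-0.97 ± 0.31). Fam210b (2.66 ± 0.23; 21.5 and 19.7 CPM in Trim28 KO and 2.92 and 3.59 CPM in WT), Fbxo7 (1.48 ± 0.21) and Isg20 (1.17 ± 0.22) rose, and Bnip3l, which clears mitochondria from maturing red cells, was not called (-0.23 ± 0.19). The Kcnn4 call was lost without either Trim28 KO library or WT 1, and by DESeq2.

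**Figure D3:**
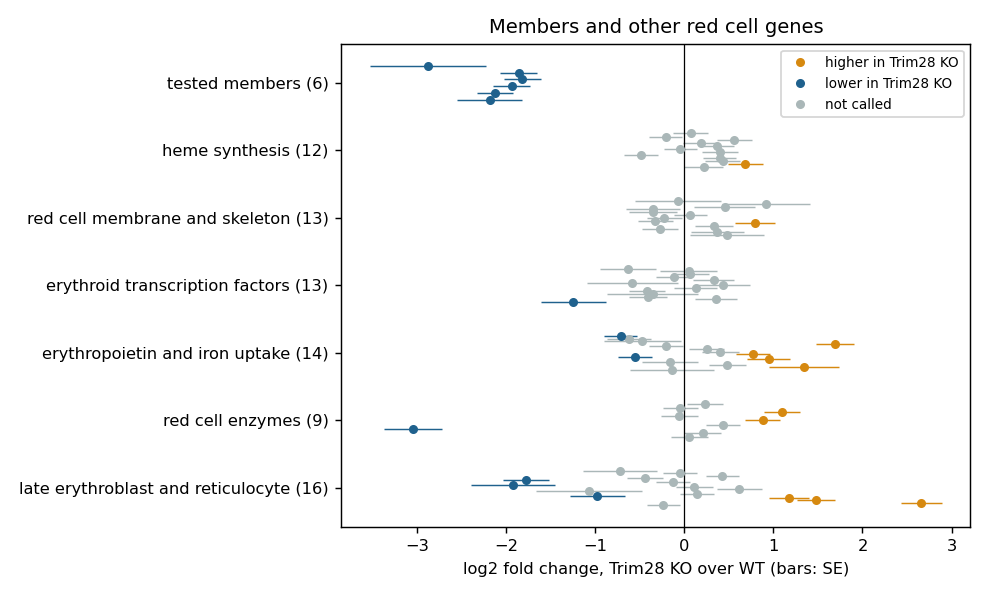
Log2 fold changes, Trim28 KO over WT, of the tested members and of the tested genes of 6 other red cell lists (bars are standard errors, numbers in parentheses count genes; the list of other globins had none tested). The 5 members that met the filter in both genotypes lie between -2.18 and -1.82, whereas the other lists are spread around 0. Slc4a1, at -2.88, could only have been tested if it was high in WT.

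Genes listed as neighbours of the globin genes in the genome were not called. Their positions were not looked up, so some may lie far from the globins or on another chromosome. Of 6 tested genes listed for the alpha globins, none was called by edgeR (0 at an unadjusted p under 0.05 and 0 by DESeq2). Their median log2 fold change was 0.09. Nprl3, whose introns hold the main alpha globin enhancers, was not called (0.29 ± 0.20, adjusted p = 0.359). Of 10 tested genes listed for the beta globins, none was called by edgeR (2 at an unadjusted p under 0.05, 1 in each direction, and 0 by DESeq2). Their median was 0.28.

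Markers of other cells that blood, marrow or nearby tissue could bring moved in different directions. Of 9 tested osteoclast genes, 8 fell, with a median log2 fold change of -2.56. Their summed level was 275 and 286 CPM in Trim28 KO and 1112 and 912 CPM in WT. Acp5, the tartrate-resistant phosphatase of osteoclasts, had 7.78 and 6.92 CPM in Trim28 KO and 40.1 and 40.1 CPM in WT. Of the osteoclast genes that fell, Oscar and Dcstamp met the filter on low counts only through the WT libraries. The Ctsk call was lost without either Trim28 KO library and the Oscar call without Trim28 KO 2. The Tnfrsf11a call was lost without either Trim28 KO library or WT 1, and by DESeq2. Of 12 macrophage genes, 7 rose and none fell (by edgeR; 0 lower at an unadjusted p under 0.05 or by DESeq2), with summed levels of 478 and 308 CPM in Trim28 KO and 183 and 191 CPM in WT. Of 10 tested genes of heme and iron recycling, 3 rose, including Hmox1, the heme oxygenase (0.85 ± 0.19, a call lost without Trim28 KO 1 with an adjusted p of 0.0527), and 3 fell, including Slc40a1, the iron exporter ferroportin (-1.74 ± 0.21). Of 12 endothelial genes, Vwf fell (-0.95 ± 0.21, a call lost without Trim28 KO 2) and 11 were not called, with summed levels of 522 and 588 CPM in Trim28 KO and 684 and 590.2 CPM in WT.

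Among the markers of other blood cells, the megakaryocyte list summed to 512 and 707 CPM in Trim28 KO and 591 and 728 CPM in WT, nearly all of it from Thbs1, which many tissues make (489 and 693 CPM in Trim28 KO and 577 and 715 CPM in WT). The blood progenitor list summed to 114 and 120.2 CPM in Trim28 KO and 129 and 131 CPM in WT, mostly from Cd34 and Meis1, which vessels and other tissues also use. The 10 neutrophil genes summed to 2.78 and 2.06 CPM in Trim28 KO and to 3.77 and 27.5 CPM in WT. Here WT 2 stood far above the other 3 libraries, and it was also the library with the most globin reads. S100a8 had 2 and 2 reads in Trim28 KO and 11 and 99 in WT, and Ltf had 0 and 0 in Trim28 KO and 12 and 52 in WT. Among blood progenitor genes, Mpo and Prtn3 fell and the other 7 tested genes were not called, and both calls were lost without WT 2 and without either Trim28 KO library. Like Slc4a1, the genes S100a8, Ltf, Mpo and Prtn3 met the filter on low counts only through the WT libraries. They could hence only have been tested if they were high in WT. The 10 hepatocyte genes summed to 1.34 and 0.753 CPM in Trim28 KO and 3.505 and 2.63 CPM in WT, and Alb, the gene of albumin, had 7 and 3 reads in Trim28 KO and 26 and 15 in WT. Of 4 tested megakaryocyte genes, Pf4 rose (1.30 ± 0.28, a call lost without Trim28 KO 1) and none fell by edgeR. At an unadjusted p under 0.05, 2 of the 4 were lower, Itga2b (-0.71 ± 0.30) and Gp1ba (-0.93 ± 0.44), and DESeq2 called 0 lower. Of 4 tested mast cell genes none was called by edgeR (1 at an unadjusted p under 0.05, 0 by DESeq2). Of 3 tested B and T cell genes Ebf1 fell, and of 11 tested skeletal muscle genes Myog rose and Tnnt3 fell. The Ebf1 call was lost without any 1 of the libraries, the Myog call without Trim28 KO 1 and the Tnnt3 call without Trim28 KO 2. The part of these cell types in the fall of the globins was not tested.

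**Figure D4:**
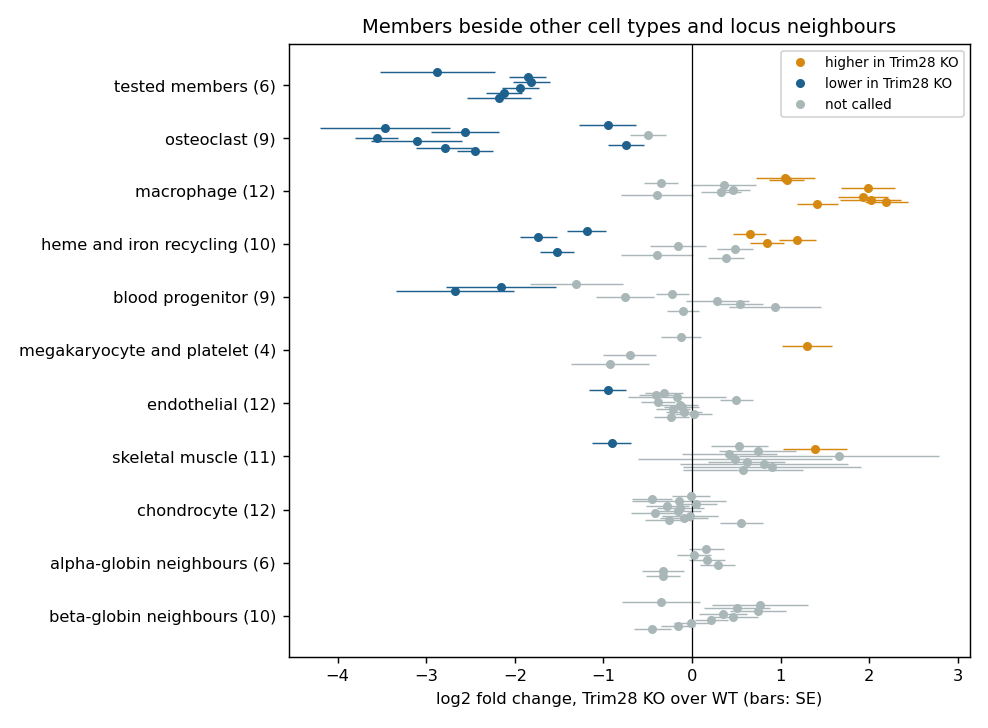
Log2 fold changes, Trim28 KO over WT, of the tested members beside tested marker genes of other cell types and genes listed as globin neighbours. Bars are standard errors, and numbers in parentheses count genes. Osteoclast genes lie on the lower side with the members and macrophage genes mostly on the higher side. Chondrocyte genes and listed neighbours lie near 0.

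Other genes had the same pattern over the libraries as the members. Likeness was measured as the distance between log2(CPM + 0.1) values, centred per gene over the 4 libraries, and the mean profile of the 5 members with at least 1 CPM on average (the adult globins and Alas2), among 14845 other genes. The 12 nearest, in order, were Dapk2, Pdk4, Tmem100, Esm1, Rgs6, Hist1h2bg, Car12, Bmp4, Tent5c, Gm31520, Mepe and B3galt2, at distances of 0.117 to 0.282, while the farthest of the 5 members lay at 0.410 from their mean. Only Tent5c is in the red cell lists. Dapk2, a death-associated protein kinase, had 2.42 and 3.16 CPM in Trim28 KO and 9.13 and 12.4 CPM in WT. Pdk4, a kinase that holds back pyruvate oxidation, had 5.25 and 5.07 CPM in Trim28 KO and 18.5 and 23.6 CPM in WT. Bmp4 is a bone morphogenetic protein, Mepe a matrix protein of osteocytes, and Car12 a membrane carbonic anhydrase. With 4 libraries in 2 genotypes, a profile of this kind is shared by many genes that are lower in Trim28 KO.

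**Figure D5:**
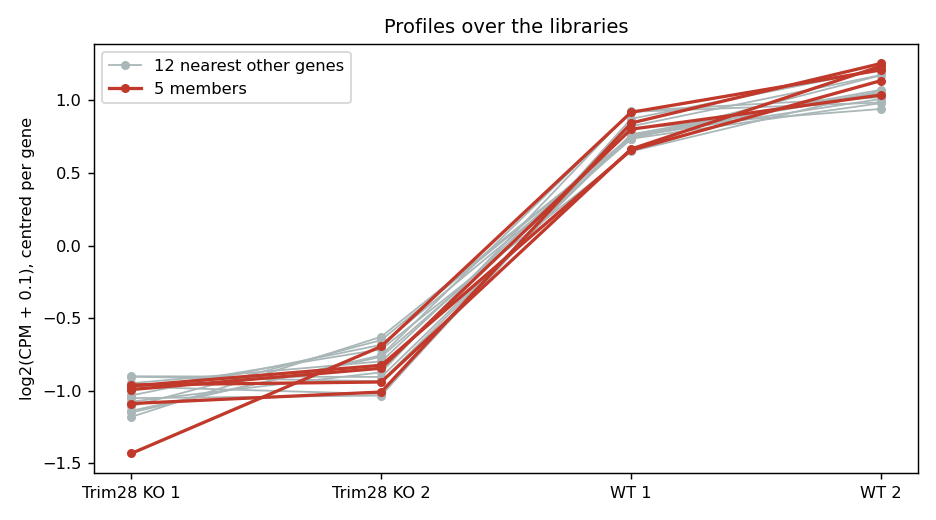
Log2(CPM + 0.1), centred per gene, in the 4 libraries for 5 members (red) and the 12 genes nearest to their mean profile (grey). All are lower in both Trim28 KO libraries than in both WT libraries, and lines only join the values of a gene.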

How the data were processed

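The authors deposited raw counts per gene name. Per the file headers, fragments of paired reads over exons were counted by featureCounts 1.6.4 against mm10 genes (GENCODE M23), without options set for strand, overlaps or reads with several hits; Subread 1.6.4 and edgeR stand in the submitters' processing notes, and the aligner is not given in the sources used here. The default filterByExpr left 16639 genes. After TMM scaling they were tested, Trim28 KO against WT, with the quasi-likelihood test of edgeR 4.0.16 (robust dispersions, no covariate; limma 3.58.1 and R 4.3.3 were also used). Calls needed a Benjamini-Hochberg adjusted p under 0.05. The standard error was the log2 fold change over the square root of F. Within a genotype the libraries varied beyond sampling noise (chi-square over degrees of freedom: 27.1 in Trim28 KO, 33.9 in WT), so all 4 were kept as separate samples. The fit was tested on simulated counts. Positions and transcripts came from GENCODE M21 on GRCm38, promoters from RefSeq GRCm38.p6.

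The members and 21 gene lists were chosen with earlier results of these data known. The rule for names took the members, up to 6 genes of a list by mean CPM, called genes against a list's main direction, and the 12 nearest profiles. The other called genes of the lists, and the genes given by low reads (such as Gata1 and Rhag), were named after their values were seen. A few listed genes are counted but not reported here by name. Alternatives were RLE, upper-quartile and no scaling factors, no filter, a filter of at least 5 CPM in 2 libraries, the exact test in edgeR, limma-voom, DESeq2 1.42.0, glmTreat against a log2 change of 1, a replicate block, factors without red cell, leukocyte and muscle genes, and leaving out each library; a crossed block was added after the data were seen.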

Additional observations from a re-analysis of the deposited data

How the results depend on the processing

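Over up to 16 alternatives, the log2 fold changes of the adult globins ran from -2.29 to -1.87 (Hba-a1), -2.17 to -1.60 (Hba-a2), -2.01 to -1.53 (Hbb-bs) and -1.95 to -1.71 (Hbb-bt), and that of Alas2 from -2.64 to -1.83. These 5 genes were called under each alternative in which they were tested. Slc4a1 ran from -3.41 to -2.21 and lost its call without Trim28 KO 1 and without WT 2. The stricter filter left Alas2 and Slc4a1 untested, so that 4 members were called, against 6 with the usual filter. Without 1 library, 5 to 6 members were called. Over all genes, 2898 were called, 1274 to 2694 without 1 library and 389 against a log2 change of 1. Of the other red cell genes, 18 were called, 9 to 20 without 1 library and 4 against a log2 change of 1. The null of glmTreat is stricter by construction, and the cause of the other changes was not tested. Of the 7 that fell, 4 were lower by DESeq2, 2 without Trim28 KO 1 and 4 without Trim28 KO 2 or WT 1. With the replicate block, 2921 genes, 6 members and 18 other red cell genes were called. The labels do not say that replicate numbers mark a litter or batch, and the deviations of same-numbered libraries correlated at -0.107. With the numbers crossed, 3340 genes and 6 members were called. Depth limits Hbb-y, Hbb-bh1 and Slc4a1 among the members, at 0 to 31 reads per library.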
